A study of Mus musculus with 6 samples.

Results

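The genes described here are 9 genes of the osteoclast programme, measured by bulk RNA-seq in MC38 tumors: Tnfsf11, Tnfrsf11a, Tnfrsf11b, Nfatc1, Oscar, Dcstamp, Ocstamp, Acp5 and Ctsk. They were found by their symbols in a table of 33965 genes, and each symbol had a row of its own. The genes were chosen on their measured values in the same 6 tumors, with the difference between GB2 and PBS in view, so that difference is given for them as a description with no test. The MC38 line comes from a colon carcinoma of the mouse and was implanted under the skin of C57BL/6 mice. In the PBS group 3 tumors came from mice given the buffer alone, and in the GB2 group 3 tumors came from mice given GB2, a prodrug in which a disulfide bond that glutathione opens holds MSA-2, an agonist of STING, to artesunate, used by the study as an inhibitor of TREM2. The study's methods describe female mice and an injection into a vein. The labels give no dose or time for the sequenced tumors, name no genetic change in the mice, and number the tumors separately, so the replicates are taken as separate tumors.

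An osteoclast is a bone-resorbing cell that forms when cells of the macrophage lineage fuse. RANKL, the product of Tnfsf11, binds its receptor RANK (Tnfrsf11a) on the precursor, and osteoprotegerin (Tnfrsf11b) is a secreted decoy receptor that takes RANKL away. RANK signalling, helped by receptors such as OSCAR that act through ITAM adaptor proteins, switches on the transcription factor NFATc1, and NFATc1 in turn drives the genes of the fusion proteins DC-STAMP and OC-STAMP and of the secreted enzymes TRAP (Acp5) and cathepsin K (Ctsk). Macrophages outside bone also make several of these products, cathepsin K is also made by fibroblasts, and osteoprotegerin comes mostly from stromal cells.

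The total counts ran from 64764405 to 69878156 in PBS tumors and from 81210553 to 83690056 in GB2 tumors, so that the smallest GB2 library exceeded the largest PBS library. By the pile-up of low values, a read pair was taken to stand for about 4 of the deposited counts. Counts were scaled by library size (CPM, counts in a library of 1000000), and edgeR's quasi-likelihood test was run on the 19602 genes above a filter on low counts. With limits of 0.05 on the adjusted p and 2 on the fold change, 0 (0%) were called, and 1360 had an unadjusted p under 0.05. DESeq2 called 385 at the same limits. Of the 9 genes 8 passed the filter on low counts and Oscar did not.

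In each of the 8 genes that could be fitted the mean was higher in GB2 tumors, by a log2 fold change from 0.38 in Tnfrsf11b to 3.07 in Tnfsf11 and with a median of 1.51. The value of Tnfsf11 is a bound, since every PBS tumor held fewer than 3 read pairs of it. Over all genes tested the median was -0.02 and 48.3% had a log2 fold change above 0. In 5 of the 9 genes, Tnfsf11, Tnfrsf11a, Dcstamp, Acp5 and Ctsk, each GB2 tumor was above each PBS tumor, and in the other 4 the groups overlapped. Over all genes tested, the GB2 tumors lay wholly above the PBS tumors in 8.61% and wholly below in 6.68%. Since the 9 genes were picked on this contrast, nothing is read from these shares.

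**Figure D1:**
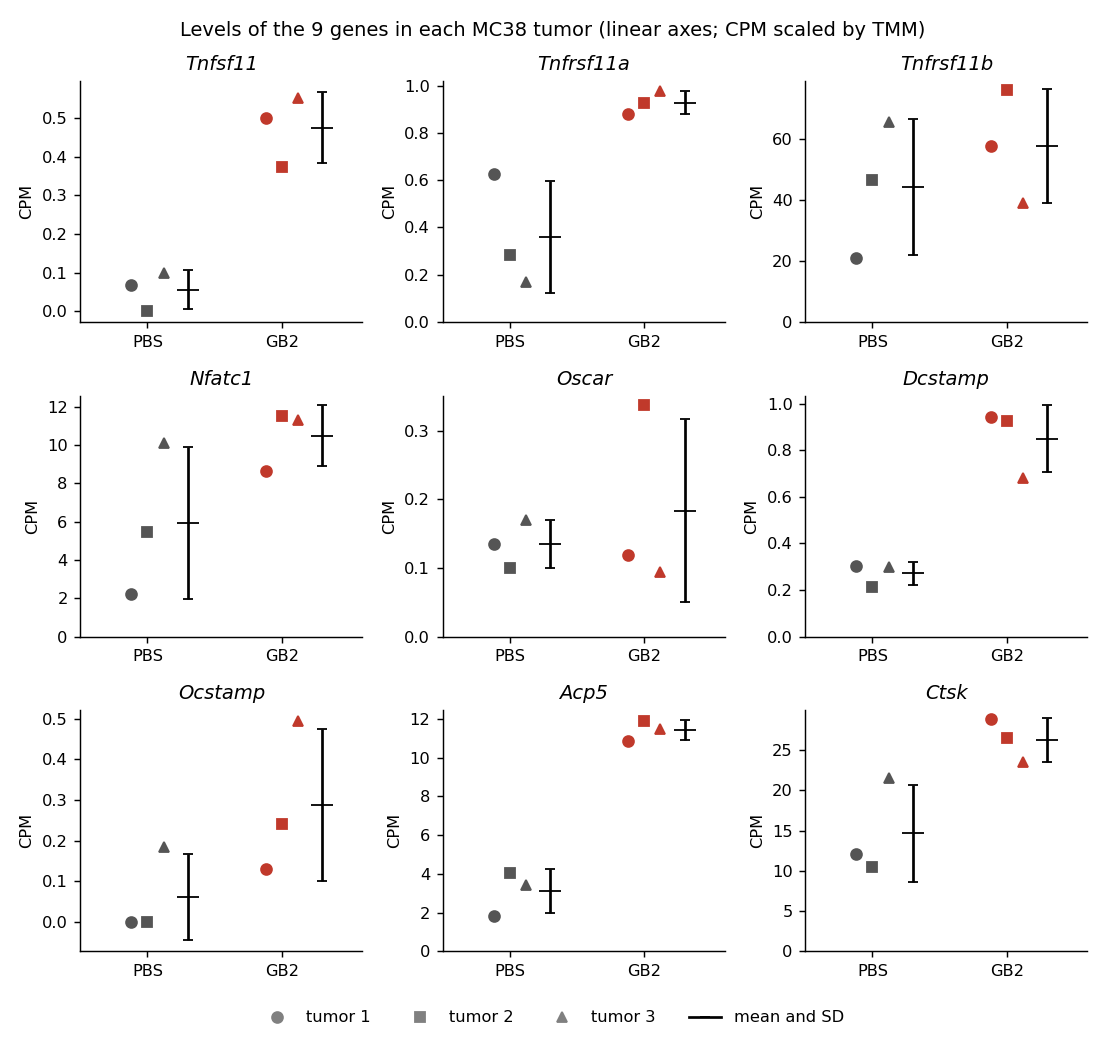
CPM (linear axes) of each of the 9 genes in 3 PBS (grey) and 3 GB2 (red) tumors. Marker shapes give the tumor number and black bars the mean and SD. The GB2 tumors lie wholly above the PBS tumors in Tnfsf11, Tnfrsf11a, Dcstamp, Acp5 and Ctsk, and overlap them in the other 4.

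The ligand, its receptor and the decoy receptor were at very different levels. Tnfsf11, the gene of RANKL (ENSMUSG00000022015, chr14:78514885-78545483 on the minus strand in the build of the table), had 4, 0 and 7 counts in PBS tumors 1, 2 and 3 and 42, 31 and 47 counts in GB2 tumors 1, 2 and 3. Every PBS tumor thus held fewer than 3 read pairs of the ligand, and every GB2 tumor held more. In CPM the means were 0.0556 ± 0.0506 (SD, n = 3) and 0.475 ± 0.0926 (SD, n = 3). Summed over tumors, about 3 read pairs stood against about 30, a ratio of 8.67 after scaling with an exact 95% counting interval from 2.47 to 40.7. This interval, like those given below for other genes, covers counting error only and not the spread between tumors. The fitted log2 fold change was 3.07 ± 0.99 (SE), to be read as a bound because the PBS tumors were at the detection limit. It ran from 2.49 without PBS tumor 2 to 3.82 without PBS tumor 3.

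Tnfrsf11a, the gene of RANK (ENSMUSG00000026321, chr1:105708443-105775709, plus strand), had 37, 20 and 12 counts in the PBS tumors and 74, 77 and 83 counts in the GB2 tumors. The GB2 tumors were close to each other, at 0.928 ± 0.0476 CPM (SD, n = 3), while the PBS tumors spread from 0.170 to 0.626 CPM around a mean of 0.360 ± 0.237 (SD, n = 3). The log2 fold change was 1.37 ± 0.55 (SE), and the ratio of the summed read pairs was 2.69 with a counting interval from 1.56 to 4.96. PBS tumor 1 held the most RANK transcript of its group. Without it the log2 fold change was 2.04, and it was 1.04 without PBS tumor 3, the lowest of the group.

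Tnfrsf11b, the gene of osteoprotegerin (ENSMUSG00000063727, chr15:54114015-54141880, minus strand), was abundant in both groups, with 1236, 3277 and 4634 counts in the PBS tumors and 4856, 6336 and 3322 counts in the GB2 tumors. In CPM these are 20.9, 46.5 and 65.6 against 57.8, 76.2 and 39.1. The groups overlapped, since PBS tumor 3 was above GB2 tumors 1 and 3, and the log2 fold change of 0.38 had a standard error of 0.42. It was 0.06 without PBS tumor 1, the lowest of the tumors, and 0.13 without GB2 tumor 2, against 0.78 without PBS tumor 3 and 0.60 without GB2 tumor 3.

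Per transcript length the decoy receptor exceeded its ligand in every tumor that had ligand reads. The ratio of Tnfrsf11b to Tnfsf11 FPKM (fragments per kilobase of transcript, scaled by library size) was 247 and 550 in PBS tumors 1 and 3, and could not be formed in PBS tumor 2, where the ligand was listed at 0. In the GB2 tumors it was 93.5, 166 and 56.1. The ratio of decoy to RANK was 72.5, 365 and 840 in PBS tumors 1 to 3, against 140, 176 and 86.0 in GB2 tumors 1 to 3, so those ranges overlapped. The ligand ratios in PBS tumors rest on 4 and 7 counts.

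Nfatc1, the gene of the transcription factor at the centre of osteoclast formation (ENSMUSG00000033016, chr18:80649420-80756286, minus strand), had 133, 385 and 716 counts in the PBS tumors and 728, 957 and 961 counts in the GB2 tumors. Its CPM were 2.25, 5.46 and 10.1 against 8.67, 11.5 and 11.3. The PBS tumors spanned a wider range than the GB2 tumors, and PBS tumor 3 lay above GB2 tumor 1, so the groups overlapped. The log2 fold change was 0.82 ± 0.49 (SE), and leaving out PBS tumor 1 or PBS tumor 3 moved it to 0.44 or 1.44.

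Oscar, the gene of the collagen-binding receptor that pairs with the Fc receptor gamma chain (ENSMUSG00000054594, chr7:3612812-3619156, minus strand), was near the detection limit in both groups. It had 8, 7 and 12 counts in the PBS tumors and 10, 28 and 8 counts in the GB2 tumors. Only GB2 tumor 2 stood clearly above the others, and the ratio of about 12 to 7 read pairs was 1.35 with a counting interval from 0.494 to 4.08. The interval covers counting error only, not the spread between tumors. Without the filter on low counts its log2 fold change was 0.45 ± 0.82 (SE).

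Both genes of the fusion proteins were at low levels. Dcstamp, the gene of DC-STAMP, a multi-pass membrane protein needed for precursors to fuse (ENSMUSG00000022303, chr15:39609326-39624334, plus strand), had 18, 15 and 21 counts in the PBS tumors and 79, 77 and 58 counts in the GB2 tumors. The PBS tumors were alike, at 0.271 ± 0.0509 CPM (SD, n = 3), and all lay under the GB2 tumors, at 0.850 ± 0.145 CPM (SD, n = 3). Its log2 fold change was 1.64 ± 0.44 (SE), and it stayed between 1.497 and 1.78 when each tumor was left out in turn. The counts correspond to about 14 and 54 read pairs, a ratio of 3.15 with a counting interval from 1.68 to 5.97.

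Ocstamp, the gene of OC-STAMP, which acts beside DC-STAMP in fusion (ENSMUSG00000027670, chr2:165235680-165242325, minus strand), had 0, 0 and 13 counts in the PBS tumors and 11, 20 and 42 counts in the GB2 tumors. The groups overlapped, because PBS tumor 3 at 0.184 CPM was above GB2 tumor 1 at 0.131 CPM. About 3 read pairs stood against 18, a ratio of 4.46 with a counting interval from 1.39 to 25.3. That interval covers counting error only, and all the PBS reads came from tumor 3. Its log2 fold change of 2.18 had a standard error of 1.42. It was between 1.55 (without GB2 tumor 3) and 2.53 when any tumor but PBS tumor 3 was left out, and 7.47 without PBS tumor 3, where the PBS group is then at 0 counts and the fitted value depends on the prior.

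Acp5 and Ctsk, the genes of the secreted enzymes, had enough counts for every tumor to be placed. Acp5 encodes TRAP, the tartrate-resistant acid phosphatase used to stain osteoclasts (ENSMUSG00000001348, chr9:22038023-22047007, minus strand). It had 109, 286 and 243 counts in the PBS tumors and 912, 990 and 978 counts in the GB2 tumors. In CPM the PBS values were 1.84, 4.06 and 3.44 and the GB2 values 10.9, 11.9 and 11.5. The GB2 tumors were close to each other, with an SD of 0.525 CPM (n = 3), and the lowest of them was above the highest PBS tumor. The log2 fold change was 1.87 ± 0.33 (SE), and it stayed between 1.62 and 2.11 when each tumor was left out. A long non-coding RNA gene, 6530413G14Rik, overlaps Acp5 on the opposite strand. It had at most 9 counts in any tumor, and whether the counting used the strand is not given in the sources used here.

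Ctsk encodes cathepsin K, the protease that cleaves bone collagen (ENSMUSG00000028111, chr3:95406567-95416673, plus strand). It had 712, 735 and 1519 counts in the PBS tumors and 2423, 2202 and 1998 counts in the GB2 tumors, or 12.04, 10.4 and 21.5 CPM against 28.9, 26.5 and 23.5 CPM. The groups did not overlap, although PBS tumor 3 came close to GB2 tumor 3. The log2 fold change was 0.84 ± 0.30 (SE), and it ran from 0.65 without PBS tumor 2 to 1.23 without PBS tumor 3. The ratio of Ctsk to Acp5 FPKM was 8.95, 3.47 and 8.44 in PBS tumors 1 to 3, against 3.57, 2.99 and 2.75 in GB2 tumors 1 to 3, so cathepsin K exceeded TRAP per length in all 6 tumors.

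RefSeq start sites (build GRCm38.p6, a set of positions other than that of the table) were available for 5 of the 9 genes, in 7 windows that reach from 250 bases before to 50 bases after the start. The windows were searched on both strands for the M-box of Mitf, TCANGTG, the NFAT core, GGAAA, the PU.1 core, GAGGAA, the AP-1 site, TGANTCA, and a kappa B type site, GGG and CC with 5 bases of any kind between them. Of 32851 promoter windows of the same length, 14.3%, 61.3%, 28.3%, 7.81% and 50.8% hold these letters in that order. Windows of 3 genes whose groups did not overlap are shown because they stand for the ligand and both enzymes. They are written 5′ to 3′ on the strand of the gene, with matches in capitals. The Acp5 window shown is that of the start nearest to the 3′ end of the gene, chr9:22130549-22130848 on the minus strand. The Ctsk window is chr3:95498960-95499259 on the plus strand, and the Tnfsf11 window is chr14:78307994-78308293 on the minus strand.
Acp5: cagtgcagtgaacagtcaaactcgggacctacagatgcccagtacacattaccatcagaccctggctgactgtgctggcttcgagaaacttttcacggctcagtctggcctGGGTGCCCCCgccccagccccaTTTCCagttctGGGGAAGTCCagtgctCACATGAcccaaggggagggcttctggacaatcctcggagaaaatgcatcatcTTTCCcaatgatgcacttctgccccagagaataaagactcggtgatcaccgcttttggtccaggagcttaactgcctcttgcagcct
Ctsk: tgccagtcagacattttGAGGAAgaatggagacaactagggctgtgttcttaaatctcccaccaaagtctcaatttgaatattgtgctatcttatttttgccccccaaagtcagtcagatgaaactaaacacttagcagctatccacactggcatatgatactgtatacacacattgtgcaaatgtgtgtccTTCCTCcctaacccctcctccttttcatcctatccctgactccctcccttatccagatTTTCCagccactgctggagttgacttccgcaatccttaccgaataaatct
Tnfsf11: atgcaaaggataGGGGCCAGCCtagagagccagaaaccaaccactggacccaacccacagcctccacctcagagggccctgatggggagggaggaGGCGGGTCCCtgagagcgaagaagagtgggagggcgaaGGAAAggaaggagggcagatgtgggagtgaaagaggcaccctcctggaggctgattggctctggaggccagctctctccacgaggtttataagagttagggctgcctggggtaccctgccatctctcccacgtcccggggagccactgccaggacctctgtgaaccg
The Acp5 window holds an M-box match that begins 90 bases before the start, NFAT core matches that begin 117 and 37 bases before it, and kappa B type matches that begin 139 and 106 bases before it, the first of them on both strands. The other Acp5 windows hold no M-box. The window of Oscar, whose groups overlapped, was searched but is not shown. It also holds an M-box match, which begins 39 bases before the start, with 4 NFAT core and 2 PU.1 core matches. The Ctsk window holds PU.1 core matches that begin 233 and 58 bases before the start and an NFAT core match at base 1. The Tnfsf11 window holds an NFAT core match that begins 117 bases before the start, and kappa B type matches that begin 238 and 155 bases before it. No window of the 5 genes held the AP-1 letters. A match describes letters in a window, and binding was not measured.

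Levels of different genes can be set side by side only per length. In the GB2 tumors the order by mean FPKM was Tnfrsf11b (20.0 ± 6.03), Ctsk (17.0 ± 1.80), Acp5 (5.50 ± 0.169), Nfatc1 (1.37 ± 0.192), Dcstamp (0.307 ± 0.0482), Tnfsf11 (0.206 ± 0.0460), Tnfrsf11a (0.151 ± 0.00808), Oscar (0.0917 ± 0.0702) and Ocstamp (0.0755 ± 0.0501), each with an SD over 3 tumors. Osteoprotegerin and cathepsin K overlapped, and so did each pair of neighbours from Tnfsf11 down to Ocstamp. Cathepsin K was above TRAP, TRAP above Nfatc1 and Nfatc1 above Dcstamp with no overlap. The lowest Dcstamp value, 0.253 FPKM, was just above the highest Tnfsf11 value, 0.245 FPKM.

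In the PBS tumors the order began the same way, with Tnfrsf11b at 15.0 ± 8.18 FPKM, Ctsk at 9.09 ± 4.10, Acp5 at 1.44 ± 0.600 and Nfatc1 at 0.758 ± 0.533 (SD, n = 3 each). Below them stood Dcstamp at 0.0902 FPKM, Oscar at 0.0651, Tnfrsf11a at 0.0527, Tnfsf11 at 0.0223 and Ocstamp at 0.0157. Among neighbours only Ctsk and Acp5, and Nfatc1 and Dcstamp, did not overlap. By mean FPKM, Tnfsf11 was second to last in the PBS tumors and stood above Tnfrsf11a, Oscar and Ocstamp in the GB2 tumors. In GB2 tumor 2 Oscar, at 0.172 FPKM, was above Tnfsf11, at 0.156 FPKM.

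**Figure D2:**
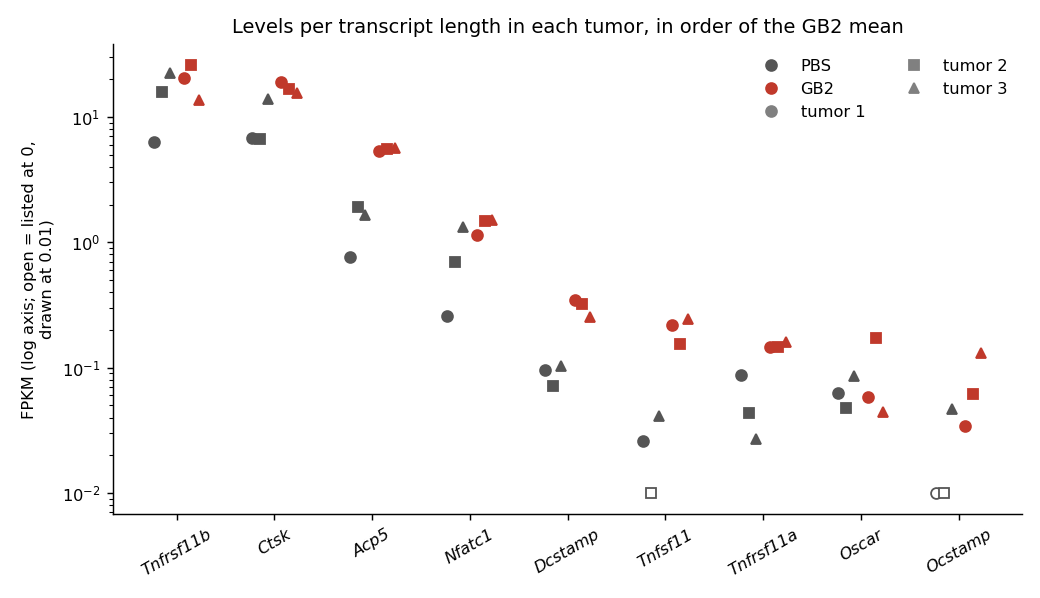
FPKM per transcript length (log axis) of the 9 genes in each PBS (grey) and GB2 (red) tumor, ordered by the GB2 mean, with marker shapes for the tumor number and open markers at 0.01 for values listed at 0. Tnfrsf11b, Ctsk, Acp5 and Nfatc1 have GB2 means above 1 FPKM, and the other 5 genes stand below 0.4 FPKM in every tumor.

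The label of an osteoclast-like cell was checked against genes that mark such cells. Siglec15, a receptor of mature osteoclasts, was at 0 counts in all 6 tumors. Calcr, the calcitonin receptor of mature osteoclasts, had 0 counts in each PBS tumor and 17, 8 and 5 counts in the GB2 tumors, and did not pass the filter on low counts. A fitted fold change against a group at 0 depends on the prior, so none is given. Of 9 markers of bone-forming cells, which supply RANKL in bone, 4 were tested, and 3 of these had a log2 fold change above 0. The lowest value among the 4 was -1.68. Each GB2 tumor was below each PBS tumor in 1 of the 4, against 6.68% of all genes tested, and above in 0. Runx2, their transcription factor, had 137 to 323 counts in every tumor and Alpl, alkaline phosphatase, had 8 to 81 counts with a log2 fold change of 0.82, while Ibsp was at 0 and Bglap was under 3 read pairs in every tumor. Bulk RNA holds no count of nuclei or cells, so the data do not show whether any cell was fused, and the 9 genes are called here by their names and not as a cell type.

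Markers of several other cell types were also higher in the GB2 tumors. The summed CPM of 12 macrophage markers was 75.7, 92.9 and 66.6 in PBS tumors 1 to 3, against 263, 261 and 356 in GB2 tumors 1 to 3, and each of the 12 was higher in every GB2 tumor than in every PBS tumor. The sum of 9 fibroblast markers was 299 to 531 CPM in PBS tumors and 990 to 1367 CPM in GB2 tumors, again with no overlap in any of the 9. Endothelial markers summed to 61.0 to 75.0 against 123 to 141 CPM, neutrophil markers to 2.07 to 4.44 against 9.14 to 12.02 CPM, and dendritic cell markers to 8.46 to 11.2 against 14.6 to 17.4 CPM. Ly6g, which defines neutrophils, was at 0, and Flt3 and Xcr1 of dendritic cells were under 3 read pairs in every tumor. Skeletal muscle markers summed to 91.5 to 156 CPM in PBS tumors and 169 to 216 CPM in GB2 tumors. Among the markers tested, each GB2 tumor was above each PBS tumor in 6 of 7 endothelial, 4 of 5 neutrophil, 2 of 6 dendritic cell and 4 of 6 muscle markers. In the other direction, 1 endothelial marker had a log2 fold change of -0.48 and 1 dendritic cell marker of -0.58. T cell markers, at 0.368 to 5.82 against 0.881 to 3.78 CPM, B cell markers, at 0.575 to 1.32 against 0.512 to 1.20 CPM with Ms4a1 under 3 read pairs, epithelial markers, at 1.39 to 3.35 against 1.44 to 5.70 CPM, and markers of bone-forming cells, at 3.14 to 3.57 against 2.80 to 4.86 CPM, overlapped between the groups. In bulk samples more cells of a type and more RNA per cell cannot be told apart, and the part of these cell types in the values of the 9 genes was not tested.

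Set against the macrophage sum of the same tumor, 7 of the 9 genes had a lower mean in GB2 than in PBS tumors, 6 of these 7 with overlapping groups. The sum was itself higher in every GB2 tumor, so a gene with unchanged CPM also has a lower mean on this scale. Over all genes tested the median log2 fold change in CPM was -0.02. The share of all genes that are lower on this scale was not computed, so nothing is read from the count. Acp5 CPM was 3.99 ± 1.40% of that sum in PBS tumors and 3.97 ± 0.682% in GB2 tumors (SD, n = 3 each), a ratio of 0.996, and Dcstamp was at a ratio of 0.839. Ctsk was 15.9%, 11.2% and 32.3% of the sum in PBS tumors 1 to 3, against 10.95%, 10.2% and 6.60% in GB2 tumors 1 to 3. It was the only gene of the 9 whose groups did not overlap on this scale, and there the GB2 tumors were lower. A gene with the same CPM in every tumor would also lie wholly lower here, so this is not read as a trait of Ctsk. Tnfrsf11a (ratio 0.695), Nfatc1 (0.452), Oscar (0.371) and Tnfrsf11b (0.353) had lower means in GB2 tumors with overlapping groups. Ocstamp was at 1.02. Tnfsf11 was the gene with the highest ratio, 2.05, from 0.0794% to 0.163%, and its groups overlapped. These ratios carry the counting error of both terms, and they do not say which cells made each transcript.

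**Figure D3:**
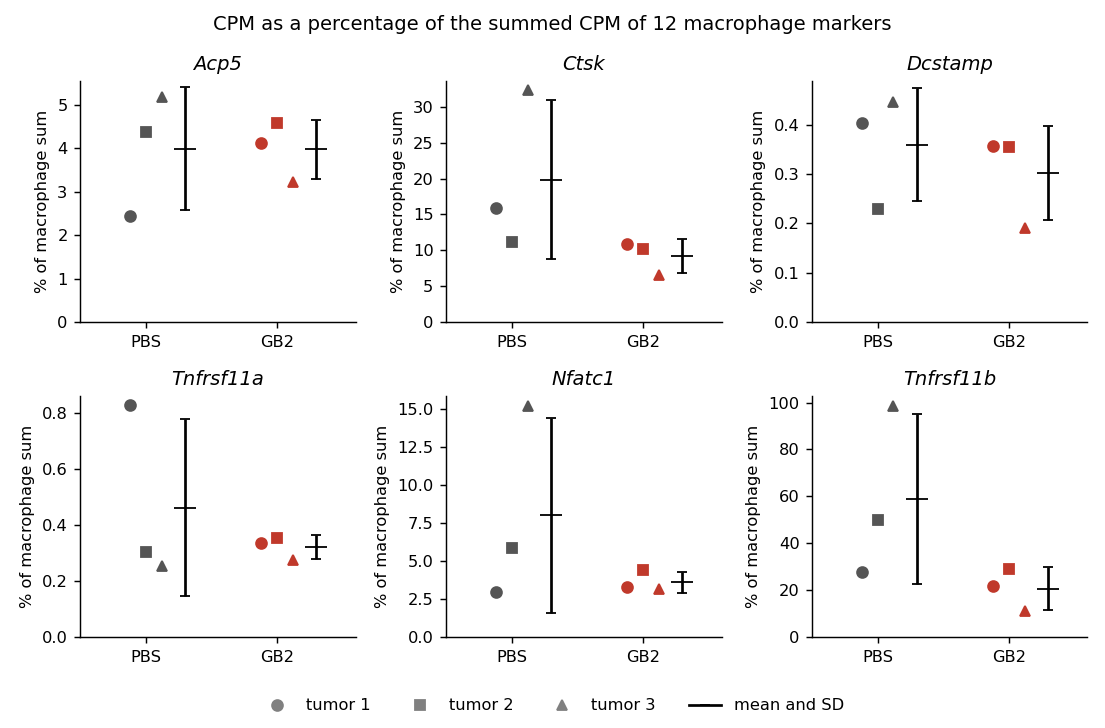
CPM of 6 of the genes as a percentage of the summed CPM of 12 macrophage markers in the same tumor (linear axes from 0), for 3 PBS (grey) and 3 GB2 (red) tumors, with the mean and SD in black. Acp5 has nearly the same mean in both groups, 3.99% and 3.97%, while Ctsk is lower in each GB2 tumor than in any PBS tumor. The macrophage sum is itself higher in every GB2 tumor, so a gene with unchanged CPM is lower on this scale.

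Within a group the 8 fitted genes deviated in different directions. The deviations of log2 CPM from the group means, which do not use the difference between the groups, were correlated over the 6 tumors for each of the 28 pairs of the 8 fitted genes. The median Pearson r was 0.12, 18 of the 28 were above 0, and they ran from -0.96 for Tnfrsf11a and Nfatc1 to 0.84 for Tnfrsf11b and Nfatc1. Nfatc1 and Acp5 were at 0.81, Acp5 and Ctsk at 0.11, and Dcstamp and Ocstamp at 0.00. Most of the spread came from the PBS tumors. PBS tumor 1 was 1.14 below its group mean in Nfatc1 and 0.93 above it in Tnfrsf11a, on the log2 scale, and PBS tumor 3 was 1.02 above in Nfatc1 and 0.80 below in Tnfrsf11a. Without PBS tumor 3 the median was -0.09. Against the summed markers, Ctsk deviations went with those of skeletal muscle (r = 0.99). They went against those of several other cell types, among them T cells (-0.98), fibroblasts (-0.89), neutrophils (-0.85), dendritic cells (-0.82) and macrophages (-0.76). Dcstamp went against macrophages (-0.95) and Acp5 had 0.23 with macrophages. The 6 points share libraries and leave 4 free deviations, and the values of Tnfsf11 and Ocstamp rest on few reads.

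**Figure D4:**
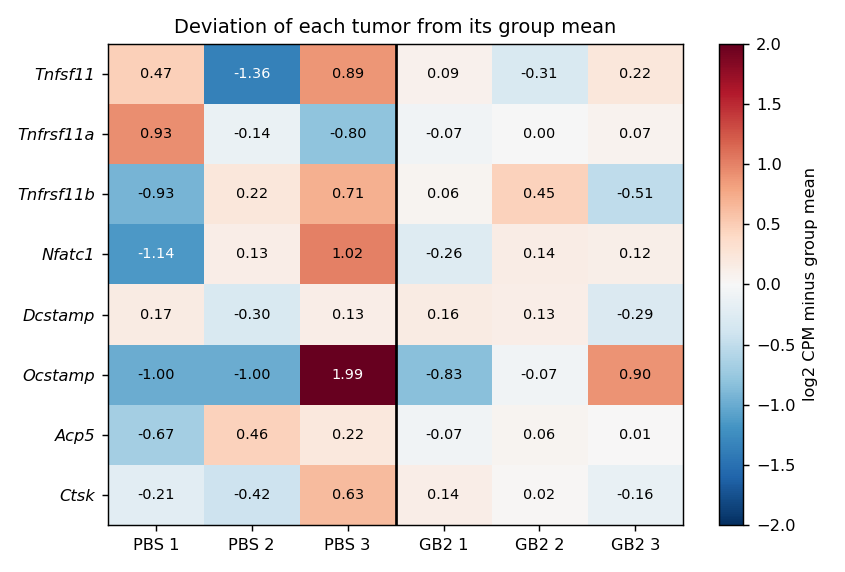
Deviation of log2 CPM of the 8 fitted genes (rows) from the group mean in each PBS and GB2 tumor (columns), in colour from blue (below the mean) to red (above it), with the value printed in each cell. PBS tumors 1 and 3 deviate in opposite directions in Tnfrsf11a, Tnfrsf11b and Nfatc1, and GB2 tumors deviate little in Acp5 and Ctsk.

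The other genes of the pathway were followed in 6 lists that leave the 9 genes out. Of their 111 genes 103 were tested, 74 had a log2 fold change above 0 and 29 below, with a median of 0.14. After Benjamini-Hochberg adjustment of the edgeR quasi-likelihood p-values 0 were called. DESeq2 called 15 at the same limits, among them Csf1, Csf1r, Trem2, Tyrobp, Blnk, Vav3, Spi1, Jund, Inpp5d, Atp6v0d2, Adam8, Il4ra, Msr1 and Mmp9, and did not call Traf6, Prdm1, Irf8 or Itgb3. With limits of 0.05 on the unadjusted p and 2 on the fold change, 21 (20.4%) were higher and 1 was lower in GB2 tumors, against 3.74% and 0.918% of all genes tested. The lists were written with earlier results of these tumors known, so these shares are a description.

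Most of the 24 genes of RANK and M-CSF signalling stood near 0, with a median of 0.09. Only Csf1 and Csf1r passed both of these limits. Csf1, the growth factor that keeps macrophages and osteoclast precursors alive, was at 5.99 ± 2.06 CPM in PBS and 14.0 ± 4.16 CPM in GB2 tumors (SD, n = 3). Its log2 fold change was 1.23 ± 0.34 (SE, edgeR adjusted p = 0.377). Without GB2 tumor 3 it was 0.96, a fold change under the limit of 2. Csf1r, its receptor, was at 3.93 ± 1.83 and 15.9 ± 5.70 CPM, with a log2 fold change of 2.01 (edgeR adjusted p = 0.266). Traf6, the adaptor that carries the RANK signal, was at 43.2 ± 5.23 and 47.1 ± 2.75 CPM with overlapping groups and a log2 fold change of 0.12.

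In the list of ITAM costimulation, the second signal that osteoclast precursors need beside RANK, all 10 tested genes had log2 fold changes above 0, with a median of 1.38, and 7 passed the limits on unadjusted p and fold change. Trem2, the receptor that the artesunate part of GB2 is meant to reduce, was at 1.20 ± 0.495 CPM in PBS and 5.38 ± 0.579 CPM in GB2 tumors, a log2 fold change of 2.16 (edgeR adjusted p = 0.190). Its adaptor Tyrobp (DAP12) was at 1.71 and the downstream proteins Blnk and Vav3 at 1.87 and 2.15. These genes are also expressed by macrophages in general, whose markers had a median of 1.94. The part of macrophages in the values of this list was not tested. For TREM2 itself, the study reported less protein by staining in GB2-treated MC38 tumors, and lower RNA and protein in treated macrophages in culture. RNA of a whole tumor gives neither the protein nor the level per macrophage.

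Of 16 tested transcription factors of differentiation, 10 were below 0 and the median was -0.10. Spi1 (PU.1), which sets the myeloid lineage, was at 1.52, and Prdm1 (Blimp1), which represses the brakes on NFATc1, was at 1.29. Jund, a subunit of AP-1, was the gene past the limits in the other direction. It was at 84.1 ± 27.1 CPM in PBS and 37.7 ± 6.38 CPM in GB2 tumors, a log2 fold change of -1.16 (edgeR adjusted p = 0.276). Without PBS tumor 1 that value was -0.87, a fold change under the limit of 2. The list of brakes on differentiation had a median of 0.36 and 4 of its 16 tested genes were past the limits, all higher. Inpp5d (SHIP1), a phosphatase that restrains signalling in precursors, was at 2.14 ± 0.462 and 6.18 ± 1.58 CPM, a log2 fold change of 1.53 (edgeR adjusted p = 0.234), and Irf8, a transcription factor that holds NFATc1 back, was at 1.14 with overlapping groups. The cytokines Il10, Ifnb1, Csf2 and Il27 were under 3 read pairs in every tumor.

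Of 24 genes of cell fusion 5 were past the limits, all higher, and the median was 0.42. Atp6v0d2, a proton pump subunit used in osteoclast fusion, was at 1.15 ± 0.207 CPM in PBS and 3.52 ± 0.837 CPM in GB2 tumors, a log2 fold change of 1.61 (edgeR adjusted p = 0.234). Msr1, a scavenger receptor, was at 1.69 (edgeR adjusted p = 0.186), Il4ra, the receptor chain for the cytokine that makes macrophages fuse, at 1.57, and Adam8, a metalloprotease, at 1.38. Itgb3, the beta chain of the integrin by which osteoclasts hold on to bone, was at 41.5 ± 6.02 and 54.6 ± 23.3 CPM with overlapping groups, and its log2 fold change of 0.40 turned to -0.01 without GB2 tumor 2. The 13 tested genes of the resorption machinery had a median of 0.16. Mmp9, a gelatinase that osteoclasts, macrophages and neutrophils secrete, was the only one of them past the limits, at 2.26 ± 1.003 and 11.2 ± 1.56 CPM, a log2 fold change of 2.32 (edgeR adjusted p = 0.186).

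**Figure D5:**
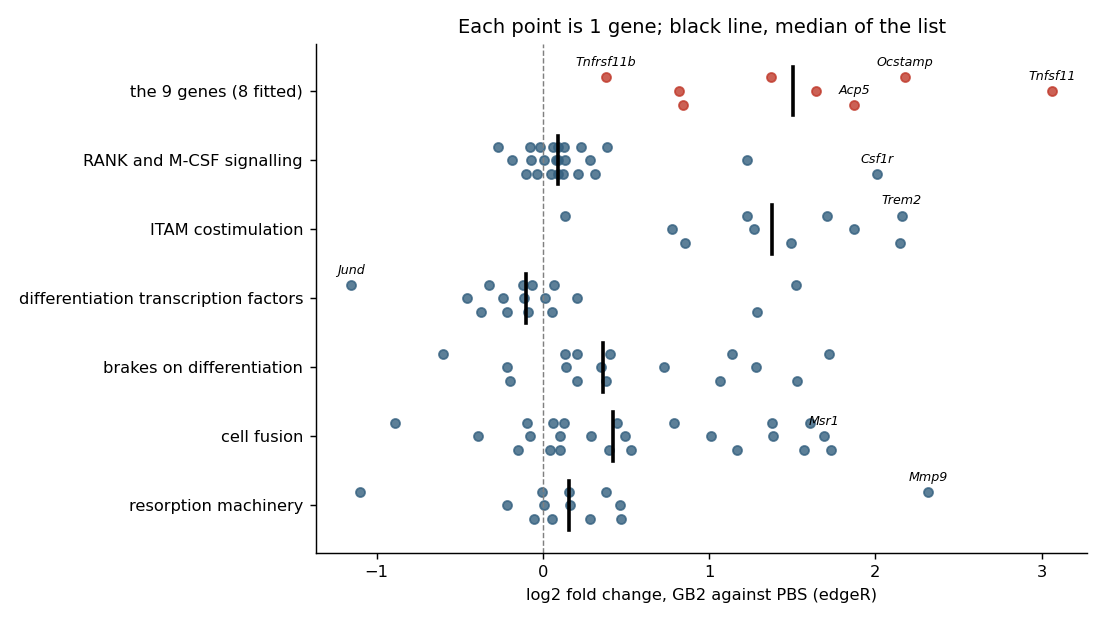
Log2 fold change of GB2 against PBS tumors from the edgeR fit, 1 point for each gene, for the 8 fitted genes (red) and 6 lists of the osteoclast pathway (blue), with black lines at the medians. The median is 1.51 for the genes described here and 1.38 for ITAM costimulation, and between -0.10 and 0.42 for the other 5 lists.

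The annotation carried by the table held larger lists, which were chosen after it had been seen. Of 109 tested genes of the KEGG term osteoclast differentiation that are not among the 9, 86 had log2 fold changes above 0, with a median of 0.25, and 24 were past the limits in the higher direction and 1 in the lower. For the GO term osteoclast differentiation, 28 of 36 were above 0 and 8 past the limits, with a median of 0.13. The GO term for its negative regulation had 21 of 27 above 0 and 7 past the limits, and that for its positive regulation 13 of 22 and 5. Over all genes tested, 48.3% were above 0 and 3.74% were past the limits in the higher direction. These terms share genes with each other and with the 6 lists.

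The genes most like the mean standardised log2 CPM profile of the 8 fitted genes were taken by Pearson correlation over the 6 tumors, among the tested genes outside the 9. That profile was at -1.05, -0.91 and -0.16 in PBS tumors and at 0.66, 0.81 and 0.64 in GB2 tumors. Tm4sf19, of the transmembrane L6 family, came closest (r = 0.997) with 0, 0 and 4 counts in the PBS tumors and 20, 26 and 24 counts in the GB2 tumors. Kcnq1, a potassium channel subunit, followed (0.993) with 20, 35 and 62 against 189, 185 and 190 counts. Eif2ak2, the kinase PKR that senses double-stranded RNA, had 0.993 and a log2 fold change of 0.64. Azin1, the antizyme inhibitor, had 0.992 and 0.51, and Cdh23, a cadherin, had 0.990 with 0, 0 and 4 against 14, 28 and 16 counts. Their likeness includes the difference between the groups by which the 9 genes were chosen, so it is a description of these 6 tumors.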

How the data were processed

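Poly-A selected, stranded, paired-end RNA-seq was measured in 3 PBS and 3 GB2 MC38 tumors. Per gene and tumor, the authors deposited FPKM beside estimated counts, and all per-sample columns were used. The submitters' processing notes name mm10, cutadapt 1.9, HISAT2 2.2.1, StringTie 2.1.6, DESeq2 and edgeR, with no role for each. Gene bounds matched the annotation of GRCm38, the assembly that mm10 stands for, in only 641 of the 31999 IDs in both (2.00%), so the positions of the table do not match the build the notes name. They are printed as the table gives them. The estimated counts that the authors deposited are whole and unscaled, with 4996 values of 2, 2984 of 3, 7017 of 4 and 2017 of 5. About 4 were taken to stand for 1 read pair, with 2 for a single read. No source used here states this factor, and the read pairs and counting intervals printed rest on it. For FPKM, the authors deposited values scaled by length and library total.

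The fit used edgeR 4.0.16 in R 4.3.3 (filterByExpr with a minimum count of 10, TMM factors from 0.914 to 1.04, glmQLFit and glmQLFTest, Benjamini-Hochberg adjustment over all genes tested). The smallest adjusted p was 0.166, and the biological coefficient of variation was 40.5%. CPM use TMM-scaled libraries, and log2 CPM a prior count of 2. The SE of an edgeR log2 fold change was worked back from the fit, as its size divided by the square root of the F statistic. DESeq2 1.42.0 and limma 3.58.1 on log2(FPKM + 1) and log2(FPKM + 0.1), other filters and scalings, a replicate block, counts divided by 4 and each tumor left out were alternatives. A gene was at the detection limit under 3 read pairs (12 counts), and a fold change with every tumor of a group at that limit was taken as a bound. Counting intervals are exact conditional binomial intervals at 95% on read pairs. The computations were tested on simulated counts.

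The 9 genes and the lists were chosen with earlier results of these data known. Named genes were the 9, up to 4 genes of each list with the smallest p past both limits and no overlap, 12 genes fixed by name, and the 5 most alike. Not every gene under this rule is reported here. Promoter sequences are those of RefSeq. Tumor numbers were not taken as pairs, since deviations from the group means correlated between same-numbered tumors at 0.03, 0.15 and -0.24 across genes. No sequencing batch is given in the sources used here, so none was tested.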

Additional observations from a re-analysis of the deposited data

How the results depend on the processing

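Every gene of the 9 kept a log2 fold change above 0 in each alternative that could fit it. Oscar, however, had no fit without GB2 tumor 2, its highest tumor. In GB2 tumors 1 and 3 it was at 0.119 and 0.0941 CPM, against a PBS mean of 0.135 CPM. The number of these genes above 0 was 8, and it was 4 with a filter of CPM above 1, which leaves only 4 of them to test. It was 6 with counts divided by 4 and 8 to 9 when each tumor was left out. On log2(FPKM + 1) low genes shrink by construction, and Tnfsf11 was at 0.24, Tnfrsf11a at 0.13 and Dcstamp at 0.26. The genes with groups that do not overlap numbered 5, and 7 without PBS tumor 3 or without GB2 tumor 1, which adds Nfatc1 and Ocstamp. The share of all tested genes was 8.61% with all tumors, 15.9% without PBS tumor 3 and 11.6% without GB2 tumor 1. This alternative was chosen after seeing the data.

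Genes called over the whole table numbered 0 with edgeR and limma and 385 with DESeq2, and the cause was not tested. DESeq2 also called 15 pathway genes. Genes past the limits of 0.05 on the unadjusted p and 2 on the fold change numbered 913, with 588 under the filter of CPM above 1, where fewer genes are tested, 131 by limma on log2(FPKM + 1), and 707 to 1380 when each tumor was left out, the most without PBS tumor 3. Pathway genes past these limits in the higher direction numbered 21, with 6 on log2(FPKM + 1) and 15 to 25 with a tumor left out. In the lower direction there was 1, with 0 to 3 when a tumor was left out (0 without PBS tumor 1, 3 without PBS tumor 3). The log2 fold change of Itgb3 reversed to -0.0079 without GB2 tumor 2, and its highest value with a tumor left out was 0.57. The median correlation within groups, 0.12, ran from -0.095 without PBS tumor 3 to 0.43 without PBS tumor 2. With the replicate number as a block, 764 genes were past the limits, 0 were called, all 8 fitted genes kept their direction, and 20 pathway genes were higher and 1 lower. Depth limits Tnfsf11, Oscar and Ocstamp most, at 3 to 7 read pairs summed over the PBS tumors.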
